A study of Mus musculus with 2 samples.

Results

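The genes described here are 36 genes of the BBSome, of its chaperonin-like assembly factors and of the ciliary transition zone and the centriole beneath it. They were taken by symbol from a list, and all 36 were found among the 55401 genes of the deposited tables. All 36 reached at least 1 FPKM in either or both libraries, the filter used throughout, where FPKM is fragments per kilobase of exon, scaled to all fragments counted. The samples were pituitaries of mouse embryos at embryonic day E12.5, from mice that lack the protein kinase Dyrk2 (Dyrk2-/-, labelled Dyrk2-KO) and from wild-type (WT) mice. The series title asks how primary cilia bear on the determination of cell types and on angiogenesis. There was 1 polyA-selected library per genotype, so the differences below lack a replicate check, and none carries a p-value. How many embryos went into a library is not known from the labels.

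A primary cilium is a single antenna that most vertebrate cells raise from the older centriole, and they need it to receive Hedgehog signals. Its base is closed by the transition zone, a belt of Y-shaped links between microtubules and membrane that decides which membrane proteins may enter. The BBSome is a protein coat that rides with the intraflagellar transport trains and carries receptors out of the cilium across that gate. Inherited loss of these genes causes Bardet-Biedl, Meckel, Joubert and related syndromes in humans.

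The deposited values correspond to about 20116000 counted fragments in the Dyrk2-KO library and 20045000 in the WT library. Dyrk2 itself measured 1.93 FPKM (95% Poisson interval 1.70 to 2.19) in the Dyrk2-KO library and 11.5 FPKM (10.9 to 12.1) in the WT library, so that 16.8% of the WT level was left. All 8 listed factors of pituitary progenitors were detected, at 28.1 to 227 FPKM in the Dyrk2-KO library and 26.1 to 250 FPKM in the WT library, among them Pitx1 and Lhx3. All intervals in the text are 95% intervals from the recovered fragments. They cover counting error only and leave out variation among embryos, dissections and preparations.

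A sequence feature that many cilium genes are known to share is the X-box, the paired half-site bound by Rfx transcription factors. It was searched on both strands as GTNNCCNNNGNNAC, where N is any base, in RefSeq windows of GRCm38.p6 that run from 250 bases before to 50 bases after each start of transcription. Windows were found for 35 of the 36 genes, with none for Tmem67. A match was present for 12 of these 35 genes (34.3%), against 1422 of all 27025 genes with a window (5.26%). Among genes above the FPKM filter that had a window, the share was 6.61%. Counted per window, it was 26.7% for the listed genes and 4.62% for all genes. Matches that read on both strands at the same place were counted once.

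The matches fell on 8 of 15 genes of the transition zone module named after Meckel syndrome (MKS) and the tectonics, on 3 of 8 BBSome subunits and on Nphp4. No match was found near the starts of the 3 chaperonin-like genes, the 2 BBSome recruitment genes or the 3 centriole genes. Of the 12 matches, 5 began before the start of transcription and 7 began 2 to 37 bases after it. The share therefore depended on where the window ended: with only the 250 bases before the start it was 14.3% of the 35 genes, against 4.39% of all genes. With 9 fixed letters in place of 7 (GTTNCCNNNGNAAC) it was also 14.3%, against 0.936% of all genes.

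The stretches below show 9 of the 12 matches, written 5′ to 3′ on the strand of the gene with the matching letters in capitals. They were picked because they cover the lower, level and higher genes described further on. Positions of the first capital are counted from 1 at the first transcribed base, and with a minus sign before it. The stretch of Bbs1 lies at chr19:4906605-4906634 (minus strand, position 2), that of Bbs4 at chr9:59353464-59353493 (minus, 24) and that of Bbs7 at chr3:36613474-36613533 (minus, -121). Tctn1 has its match at chr5:122264411-122264432 (minus, 37), Tctn2 at chr5:124598664-124598723 (plus, -62) and Mks1 at chr11:87853155-87853214 (plus, -24). B9d2 has it at chr7:25680788-25680817 (plus, 17), Ahi1 at chr10:20952560-20952589 (plus, 22) and Tmem216 at chr19:10555723-10555752 (minus, 20).
Bbs1: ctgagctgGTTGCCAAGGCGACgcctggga
Bbs4: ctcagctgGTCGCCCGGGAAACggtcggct
Bbs7: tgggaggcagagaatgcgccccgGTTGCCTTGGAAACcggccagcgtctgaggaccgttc
Tctn1: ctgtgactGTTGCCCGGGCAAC
Tctn2: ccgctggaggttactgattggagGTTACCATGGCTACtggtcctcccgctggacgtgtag
Mks1: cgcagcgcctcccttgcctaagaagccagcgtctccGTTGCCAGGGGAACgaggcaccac
B9d2: aacctgctGTTGCCCCAGCAACagtcgggg
Ahi1: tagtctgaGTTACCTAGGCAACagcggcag
Tmem216: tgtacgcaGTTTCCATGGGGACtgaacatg
The paired half-sites are easiest to see in Tctn1, whose capitals read the same on both strands. A match describes letters near a start and does not show that a factor binds there.

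**Figure D1:**
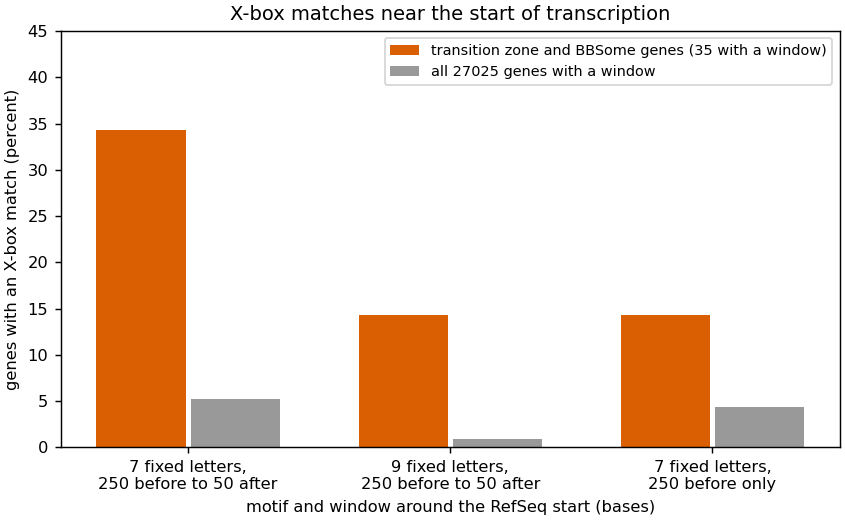
Share of genes with an X-box match near a RefSeq start (percent, vertical axis) for the transition zone and BBSome genes (orange) and all genes with a window (grey), under 3 choices of motif and window. The share was higher for the 35 ciliary genes in each, and lowest at 14.3% with the stricter motif or the shorter window.

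The 36 genes were expressed at low to moderate and similar levels in both libraries, and most were slightly lower without Dyrk2. Their levels ran from 2.38 to 16.6 FPKM in the Dyrk2-KO library, with a median of 5.53 FPKM, and from 2.35 to 17.1 FPKM in the WT library, with a median of 6.34 FPKM. Summed over the 36 genes, the level was 223 FPKM in the Dyrk2-KO library and 249 FPKM in the WT library. The log2 ratio of Dyrk2-KO over WT, taken after adding 0.5 FPKM to both values, lay below 0 for 30 genes and above 0 for 6. Over all 14000 genes above the filter, 53.7% lay below 0.

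No listed gene reached a 1.5-fold difference in either direction, where 4.56% of all genes were at least that much lower and 2.06% at least that much higher. At 1.2-fold, 8 of the 36 genes were lower, beside 14.6% of all genes, and 1 was higher, beside 7.27%. The interval of the ratio excluded equality for 15 lower genes, beside 22.3% of all genes, and for 2 higher genes, beside 17.7%. Among the 6976 protein-coding genes whose mean FPKM lay in the range of the 36, 57% lay below 0, 2.38% were lower and 0.688% higher at 1.5-fold, 11.9% lower and 4.57% higher at 1.2-fold, and 25.3% lower and 14.5% higher by the interval. The median log2 ratio of the 36 genes was -0.14, against -0.02 over all genes above the filter and -0.03 over those protein-coding genes. In bulk tissue, fewer cells that carry a transcript and less of it per cell cannot be told apart.

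**Figure D2:**
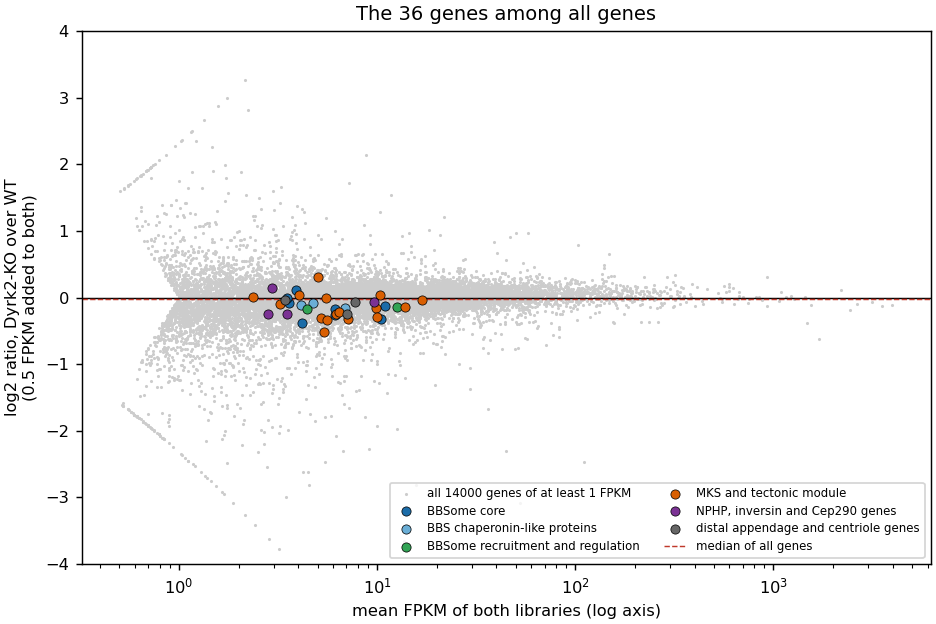
Log2 ratio of Dyrk2-KO over WT (0.5 FPKM added, vertical axis) against the mean FPKM of both libraries (log axis) for all 14000 genes above the filter (grey), with the 36 genes coloured by group. The coloured points lie between -0.52 and 0.30, and 30 of them lie below 0.

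**Figure D3:**
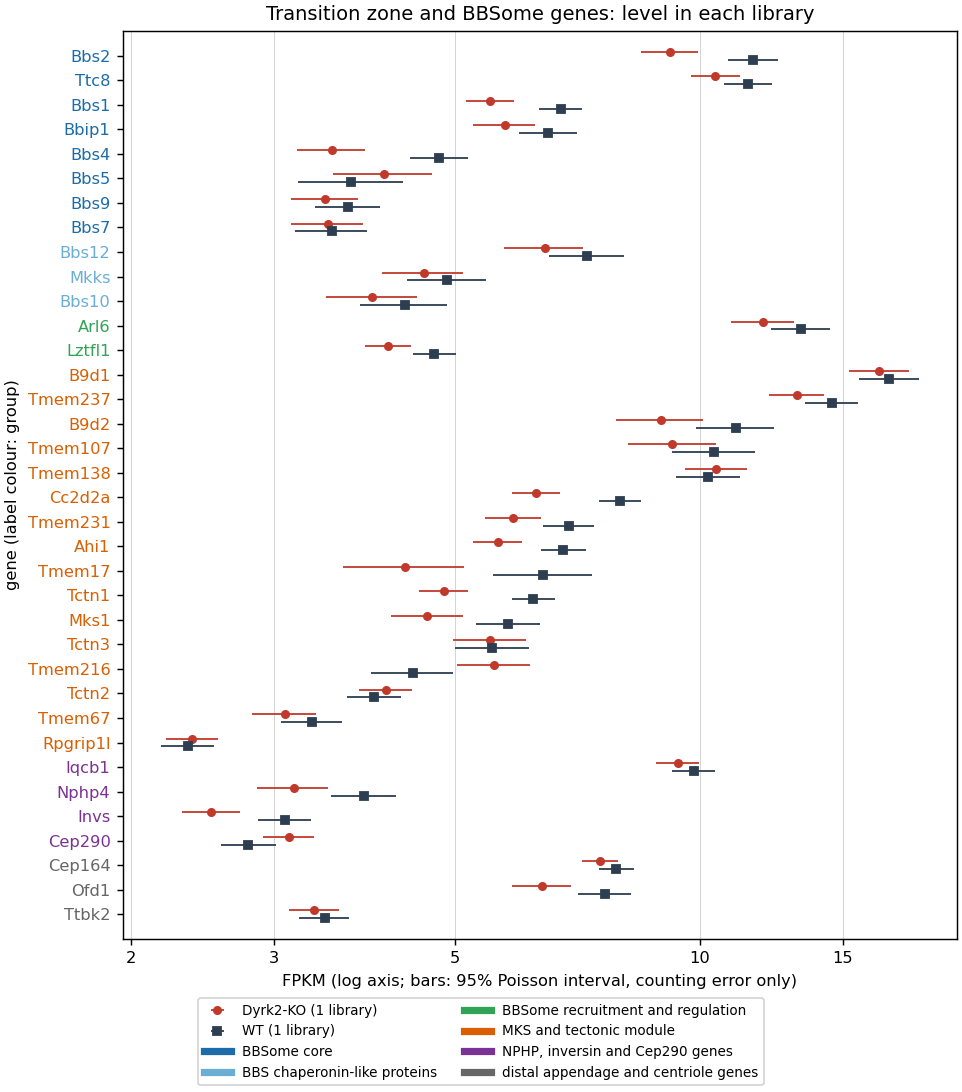
FPKM (log axis) of each of the 36 genes in the Dyrk2-KO library (red circles) and the WT library (dark squares), 1 library each, with 95% Poisson intervals. Rows are grouped by complex, and B9d1 has the highest level and Rpgrip1l the lowest in both libraries.

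In the BBSome core, 7 of 8 subunit genes had a ratio below 1 and 4 were lower beyond counting error, with Bbs5 the only subunit above equality. Over all genes above the filter, 53.7% lay below equality and 22.3% were lower beyond counting error. Bbs4, a tetratricopeptide-repeat subunit, measured 3.53 FPKM in the Dyrk2-KO library and 4.78 FPKM in the WT library, a ratio of 0.738 (0.650 to 0.838). Bbs2, a beta-propeller subunit, measured 9.19 FPKM in the Dyrk2-KO library and 11.6 FPKM in the WT library, a ratio of 0.790 (0.709 to 0.880). Bbs1, the propeller subunit that contacts the recruiting GTPase Arl6, measured 5.53 FPKM in the Dyrk2-KO library and 6.75 FPKM in the WT library, a ratio of 0.819 (0.748 to 0.898). The Poisson intervals of the 2 libraries did not overlap for any of these 3 genes. The share of all genes without such an overlap was not computed, so this has no background to be read against.

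The smallest subunit, Bbip1, measured 5.76 FPKM in the Dyrk2-KO library and 6.52 FPKM in the WT library, and its ratio of 0.883 had an interval that only just excluded 1 (0.783 to 0.997). Under each of 3 other scalings Bbip1 was no longer beyond counting error. Ttc8, another tetratricopeptide-repeat subunit, was at 10.5 FPKM in the Dyrk2-KO library and 11.5 FPKM in the WT library, a ratio of 0.911 (0.827 to 1.005). The remaining subunits were near equality. Bbs7 measured 3.49 and Bbs9 3.46 FPKM in the Dyrk2-KO library, against 3.53 and 3.70 FPKM in the WT library. Bbs5, a membrane-binding subunit, was at 4.09 FPKM in the Dyrk2-KO library and 3.73 FPKM in the WT library, a ratio of 1.10 (0.891 to 1.34).

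The assembly and recruitment genes of the BBSome all had ratios a little below 1. The 3 chaperonin-like genes help fold Bbs7 and build the core, and none differed beyond counting error. Bbs12 measured 6.45 FPKM in the Dyrk2-KO library and 7.27 FPKM in the WT library, Mkks 4.58 and 4.90 FPKM in the same order, and Bbs10 3.96 and 4.34 FPKM. Their ratios lay between 0.887 and 0.935. Exons of AL731706.1, at 0 FPKM in both libraries, cover 29.3% of the exon bases of Mkks on the same strand. Arl6, the small GTPase that brings the BBSome to membranes, measured 11.97 FPKM in the Dyrk2-KO library and 13.3 FPKM in the WT library, a ratio of 0.899 (0.795 to 1.02). Lztfl1, a regulator of BBSome entry into the cilium, was at 4.14 FPKM in the Dyrk2-KO library and 4.72 FPKM in the WT library, a ratio of 0.877 (0.803 to 0.959). Of these 5 genes Lztfl1 alone was lower beyond counting error.

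By contrast with the BBS chaperonin-like genes, the CCT chaperonin subunits that fold actin and tubulin and act beside them were all slightly higher. All 8 had ratios above 1 whose intervals excluded equality, beside 17.7% higher among all genes, with a median log2 ratio of 0.11. More fragments lay behind them, for example 9753 for Cct5 in the Dyrk2-KO library against 316 for Bbs12, so smaller differences passed the interval. The counts beyond counting error are therefore not comparable between the 2 lists. Cct5 measured 175 FPKM in the Dyrk2-KO library and 168 FPKM in the WT library, and Cct3, the furthest from equality, 66.4 and 60.7 FPKM in the same order. The difference between the 2 lists was not tested.

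The MKS and tectonic module, the membrane and coiled-coil proteins that form the gate itself, held both extremes of the 36 ratios. Of its 16 genes, 12 had ratios below 1, and 7 were lower and 1 higher beyond counting error. The shares over all genes above the filter were 53.7%, 22.3% and 17.7% in the same order. Tmem17, a small membrane protein of the gate, had the lowest ratio of all 36, 0.675 (0.540 to 0.844), at 4.34 FPKM in the Dyrk2-KO library and 6.43 FPKM in the WT library. It also rested on few fragments, 137 in the Dyrk2-KO library and 202 in the WT library. Tmem216, another membrane protein of the gate, had the highest ratio, 1.26 (1.08 to 1.47), at 5.59 FPKM in the Dyrk2-KO library and 4.44 FPKM in the WT library. Its neighbour Tmem138 lies 14.2 kb away on the same strand of chromosome 19 and was level, at 10.5 FPKM in the Dyrk2-KO library and 10.3 FPKM in the WT library. Part of the exon sequence of each of these neighbours is shared with genes on the opposite strand, 5.15% for Tmem216 with Cpsf7 and 8.09% for Tmem138 with Cyb561a3. AC125093.1, also on the opposite strand and at 0 FPKM in both libraries, covers 31.4% of the exon bases of Tmem138. The use of strand in counting is not given in the sources used.

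The tectonics, 3 related secreted or membrane proteins of the same module, had unequal ratios. Tctn1 measured 4.85 FPKM in the Dyrk2-KO library and 6.25 FPKM in the WT library, a ratio of 0.776 (0.707 to 0.851). Tctn2 was at 4.12 FPKM in the Dyrk2-KO library and 3.98 FPKM in the WT library, a ratio of 1.04 (0.928 to 1.15). Tctn3 was at 5.53 FPKM in the Dyrk2-KO library and 5.56 FPKM in the WT library, a ratio of 0.995 (0.857 to 1.15) that turned above 1 under each of the 3 other scalings. The interval of Tctn1 thus lay below those of Tctn2 and Tctn3. Exons of Hvcn1 on the opposite strand cover 19.0% of the exon bases of Tctn1, and Hvcn1, a proton channel gene, measured 5.29 FPKM in the Dyrk2-KO library and 4.40 FPKM in the WT library.

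The 3 genes whose products share a B9 domain had ratios from 0.796 to 0.973, with intervals that overlap. Mks1 measured 4.63 FPKM in the Dyrk2-KO library and 5.82 FPKM in the WT library, a ratio of 0.796 (0.693 to 0.913). B9d2 measured 8.96 FPKM in the Dyrk2-KO library and 11.1 FPKM in the WT library, a ratio of 0.809 (0.684 to 0.954). B9d1, the most abundant of the 36 per length in both libraries, measured 16.6 FPKM in the Dyrk2-KO library and 17.1 FPKM in the WT library, a ratio of 0.973 (0.862 to 1.10).

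Among the scaffolds of the module, Cc2d2a, a large protein of the Y-shaped links, measured 6.30 FPKM in the Dyrk2-KO library and 7.99 FPKM in the WT library, a ratio of 0.788 (0.720 to 0.863). Ahi1, which carries WD40 repeats and is mutated in Joubert syndrome in humans, measured 5.65 FPKM in the Dyrk2-KO library and 6.80 FPKM in the WT library, a ratio of 0.831 (0.755 to 0.913). Rpgrip1l, which links the MKS and nephronophthisis (NPHP) modules, was level at 2.38 FPKM in the Dyrk2-KO library and 2.35 FPKM in the WT library. Of the other membrane proteins, Tmem231 was lower beyond counting error, at 5.90 FPKM in the Dyrk2-KO library and 6.91 FPKM in the WT library. Tmem67, Tmem107 and Tmem237 had ratios of 0.925, 0.889 and 0.905, and none of these differed beyond counting error.

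The genes of the NPHP module, of the inversin compartment and of Cep290 split in direction. Nphp4, a transition zone scaffold, measured 3.17 FPKM in the Dyrk2-KO library and 3.87 FPKM in the WT library, a ratio of 0.819 (0.713 to 0.938). Invs, which marks the compartment just above the transition zone, measured 2.51 FPKM in the Dyrk2-KO library and 3.09 FPKM in the WT library, a ratio of 0.812 (0.726 to 0.908). Cep290, the large protein that ties microtubules to the membrane, was slightly higher at 3.13 FPKM in the Dyrk2-KO library and 2.79 FPKM in the WT library, a ratio of 1.12 (1.01 to 1.25). Iqcb1, a partner of Cep290, measured 9.40 FPKM in the Dyrk2-KO library and 9.84 FPKM in the WT library, and its interval included equality.

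At the centriole, the distal appendage gene Cep164 and the kinase it recruits, Ttbk2, were level. Cep164 measured 7.55 FPKM in the Dyrk2-KO library and 7.90 FPKM in the WT library, a ratio of 0.956 (0.890 to 1.03), the narrowest interval of the 36. Ttbk2 measured 3.36 FPKM in the Dyrk2-KO library and 3.46 FPKM in the WT library, and 29.9% of its exon bases are shared with Cdan1 on the same strand. Ofd1, a centriole and satellite protein, measured 6.40 FPKM in the Dyrk2-KO library and 7.65 FPKM in the WT library, a ratio of 0.837 (0.747 to 0.936). It is the only X-linked gene of the 36, and the libraries differed in their mix of sexes: Xist measured 14.8 FPKM in the Dyrk2-KO library and 75.0 FPKM in the WT library, and the Y-linked gene Ddx3y 14.95 and 5.83 FPKM in the same order. The part of that mix in the value of Ofd1 was not tested.

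**Figure D4:**
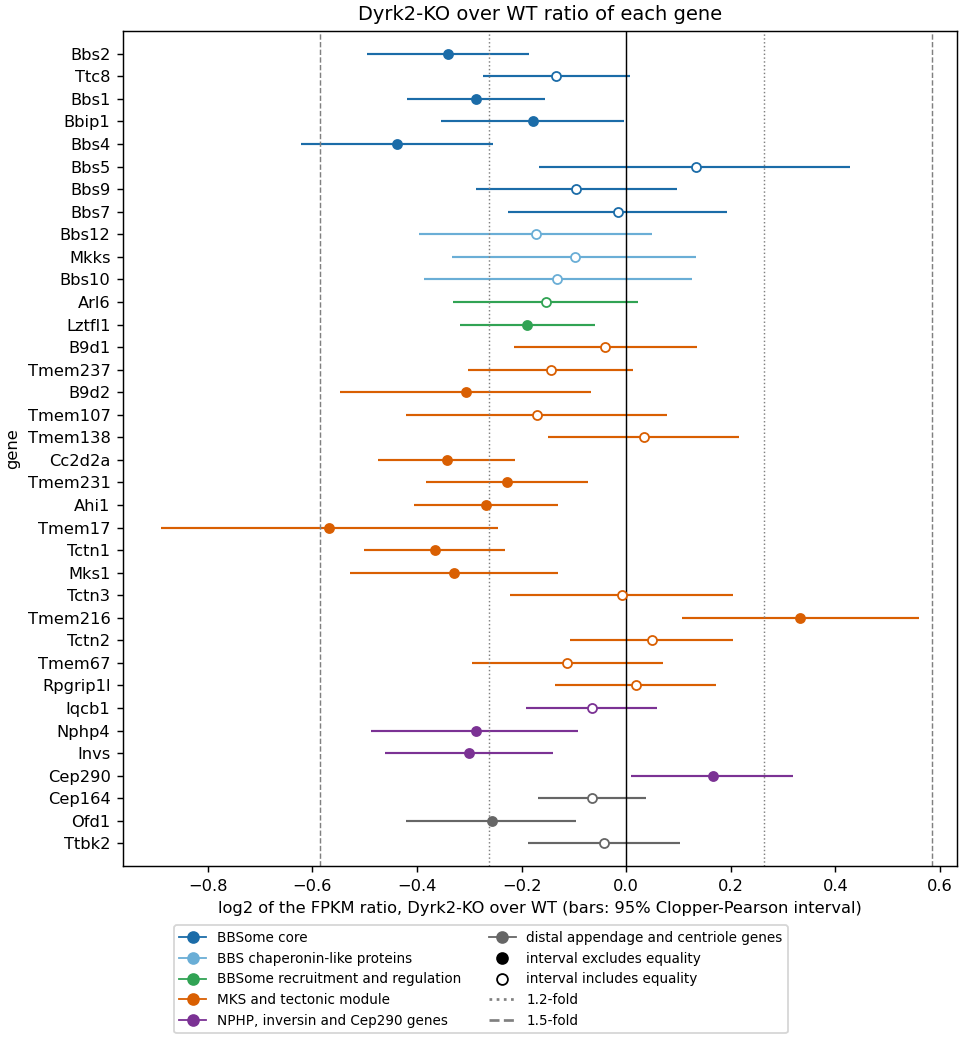
Log2 of the FPKM ratio, Dyrk2-KO over WT, with 95% Clopper-Pearson intervals (horizontal axis) for each of the 36 genes, coloured by group. Filled points mark the 15 lower and 2 higher genes whose interval excludes equality, and dotted and dashed lines mark 1.2-fold and 1.5-fold.

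Genes with and without an X-box match were both mostly below equality. Of the 12 genes with a match, 10 had log2 ratios below 0, with a median of -0.25 and a range of -0.39 to 0.30. Of the 23 genes with a window and no match, 19 were below 0, with a median of -0.12 and a range of -0.52 to 0.14. Of 9 listed Rfx and multiciliated cell regulators, 6 were above the filter, with 3 of these on each side of equality. Of these 6, 3 were lower and 1 higher beyond counting error, beside 22.3% lower and 17.7% higher among all genes. Rfx3 measured 6.24 FPKM in the Dyrk2-KO library and 7.86 FPKM in the WT library, a ratio of 0.794 (0.739 to 0.853). Rfx2 measured 1.52 FPKM in the Dyrk2-KO library and 2.14 FPKM in the WT library, a ratio of 0.710 (0.596 to 0.846), while Rfx5, the most expressed of them, measured 8.91 FPKM in the Dyrk2-KO library and 8.76 FPKM in the WT library. Rfx7 was higher, with a ratio of 1.10 (1.03 to 1.17), and Rfx1 lower, with a ratio of 0.902 (0.818 to 0.993). The part of these factors in the ratios of the 12 genes was not tested.

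Other genes of the same structures were compared as lists. Beside their counts, 53.7% of all genes above the filter lay below equality and 22.3% were lower beyond counting error. Of 14 further transition zone and inversin compartment genes, 13 were above the filter, 8 of these had ratios below 1, and 3 were lower beyond counting error, with a median log2 ratio of -0.02. Nek8, a kinase of the inversin compartment, stood lowest at 2.86 FPKM in the Dyrk2-KO library and 3.97 FPKM in the WT library. Cby1, the most expressed of this list, measured 31.98 FPKM in the Dyrk2-KO library and 33.27 FPKM in the WT library, a ratio of 0.961 (0.871 to 1.06). Of 13 further distal appendage and centriole cap genes, 11 had ratios below 1 and 3 were lower beyond counting error, with a median of -0.08. Ccp110, which caps the centriole before a cilium forms, had the lowest ratio of these, at 8.77 FPKM in the Dyrk2-KO library and 10.1 FPKM in the WT library. Pcm1, the scaffold of the satellites around the centriole, was the most expressed at 40.96 FPKM in the Dyrk2-KO library and 41.13 FPKM in the WT library, a ratio of 0.996 (0.961 to 1.03).

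Genes that traffic proteins to the ciliary membrane went both ways. Of 14 genes, 3 were lower and 5 higher beyond counting error, beside 22.3% lower and 17.7% higher among all genes. The median log2 ratio of the list was 0.03. Inpp5e, the ciliary phosphoinositide phosphatase, measured 9.28 FPKM in the Dyrk2-KO library and 11.5 FPKM in the WT library, a ratio of 0.809 (0.736 to 0.889). Gpr161, a ciliary receptor that restrains Hedgehog signalling, measured 12.6 FPKM in the Dyrk2-KO library and 11.04 FPKM in the WT library, a ratio of 1.14 (1.06 to 1.22). Rab11a, the most expressed of this list, measured 37.1 FPKM in the Dyrk2-KO library and 33.8 FPKM in the WT library.

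**Figure D5:**
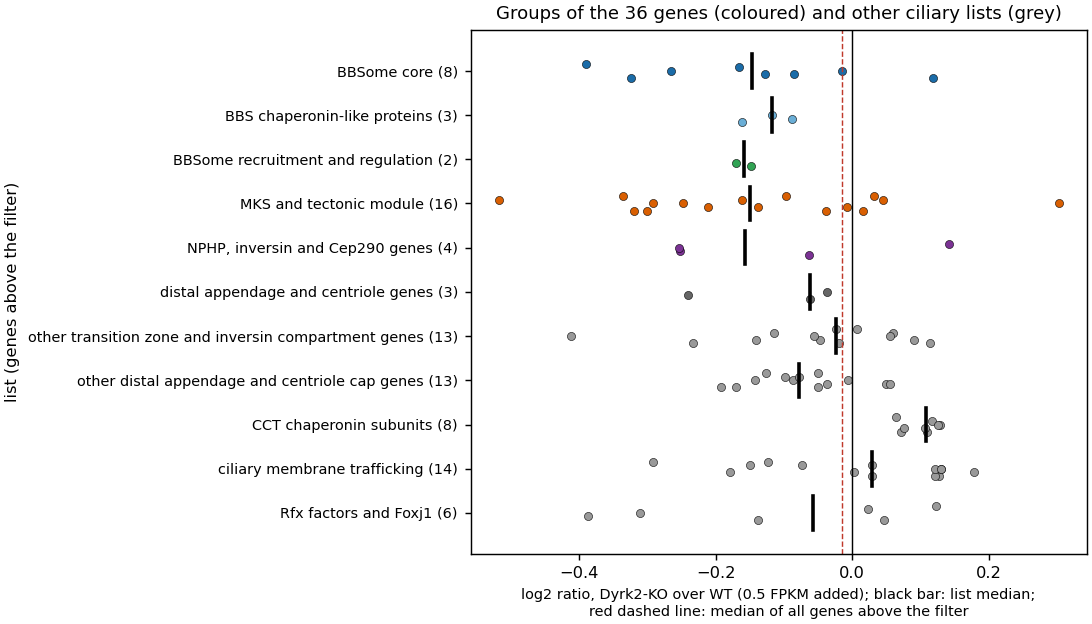
Log2 ratio of Dyrk2-KO over WT (0.5 FPKM added) for each gene of the 6 groups of the 36 genes (coloured) and of 5 other lists (grey). List medians are black bars, and 1 of the 5 other lists holds the CCT chaperonin subunits, which are not particular to cilia. The medians of the 6 groups lie between -0.16 and -0.06, and those of the other lists between -0.08 and 0.11. The value of 0.11 is that of the CCT chaperonin subunits.

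Several cell markers differed between the libraries beside these ratios, counted here by the side of equality on which each lay. Over all genes above the filter, 53.7% lay below 0. Neuroendocrine markers were lower for 6 of 6 genes, with summed levels of 79.2 FPKM in the Dyrk2-KO library and 375 FPKM in the WT library. Mesenchyme markers were lower for 6 of 7 genes, with sums of 101 FPKM in the Dyrk2-KO library and 178 FPKM in the WT library. Among them Tcf21 was at 0 FPKM in the Dyrk2-KO library and 1.61 FPKM in the WT library. Prrx1 went the other way, at 1.67 and 0.83 FPKM in the same order. Markers of dividing cells were higher for 6 of 6 genes, at 358 FPKM in the Dyrk2-KO library and 303 FPKM in the WT library. Erythroid markers were lower for all 4 genes above the filter, and over all 5 listed the sums were 1608 FPKM in the Dyrk2-KO library and 2089 FPKM in the WT library. Neuron markers were higher for 4 of 6 genes, with sums of 74.1 FPKM in the Dyrk2-KO library and 88.2 FPKM in the WT library, and endothelial markers were higher for 4 of 5 genes, with sums of 64.7 and 58.3 FPKM in the same order.

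Multiciliated cells carry many motile cilia and express many of the 36 genes strongly. Of their 10 markers, 3 were above the filter, and Mcidas, an early regulator of these cells, was at 0 in both libraries. The summed level of the 10 was 9.13 FPKM in the Dyrk2-KO library and 12.3 FPKM in the WT library. Most of it was Tekt1, an axonemal protein gene, at 5.52 FPKM in the Dyrk2-KO library and 8.37 FPKM in the WT library, from 180 fragments in the Dyrk2-KO library and 272 in the WT library. Tekt1, with a ratio of 0.659 (0.543 to 0.799), and Ccdc39, a ciliary assembly gene with a ratio of 0.748 (0.585 to 0.953), were lower beyond counting error. By the same rule 22.3% of all genes above the filter were lower. Foxj1, the main regulator of motile cilia, measured 2.35 FPKM in the Dyrk2-KO library and 2.26 FPKM in the WT library. The part of any of these cell markers in the ratios of the 36 genes was not tested.

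Levels can be set beside each other only per length, and the length used mattered. Within the BBSome core of the Dyrk2-KO library, Ttc8 stood 3.02-fold above Bbs9 per kilobase of all annotated exons joined. Per kilobase of the longest annotated coding transcript, the same library had 17.4 for Ttc8 and 6.19 for Bbs9 on the FPKM scale, a 2.81-fold difference. The shift was larger for Tmem216, whose joined exons are 2.98 times as long as its longest coding transcript. It ranked 17 of the 36 genes in the Dyrk2-KO library per joined exons and 5 of the 35 with a coding transcript by the other length, while B9d1 ranked 1 by both. The ratio between the libraries does not depend on this choice.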

How the data were processed

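PolyA-selected stranded libraries were made from total RNA of embryonic pituitaries, per the labels' protocols. The authors deposited FPKM per gene with the summed exon length, per the file headers. Per the submitters' processing notes, cutadapt 1.9.1 and HISAT2 2.0.1 were used with GRCm38. The sources used here do not give the counting tool, its use of strand or the annotation release. FPKM times exon length rose in steps of 1 fragment, and the total that makes the steps whole gave the depth: 1372 Dyrk2-KO and 1512 WT values checked were whole within 0.1 fragment. Exact Poisson intervals of levels and Clopper-Pearson intervals of ratios used these fragments. Counts and medians used log2 ratios with 0.5 FPKM added, which understates changes of low genes, and genes that reached 1 FPKM in either library. Ratios in the text are of plain FPKM.

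Symbols, positions and exons came from GENCODE M21 (GRCm38), which matched 55141 of 55401 identifiers, and promoter windows from RefSeq (GRCm38.p6). Every member was named. Of other lists, the rule covered the 2 most expressed genes and the 3 furthest from equality, of which some are named and others not reported here. The members and lists were chosen with earlier results of these data known. The X-box search and the comparison by transcript length were added after the values were seen. Alternatives were other pseudocounts, filters and scalings, and leaving out members whose exons overlap another gene. The steps were tested on simulated counts. Python 3.11.15, scipy 1.17.1 and pandas 2.3.3 were used.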

Additional observations from a re-analysis of the deposited data

How the results depend on the processing

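No paired analysis was possible because each genotype had 1 library. Upper-quartile, trimmed mean and median log ratio scaling multiplied the Dyrk2-KO library by 1.01 and left 29 of 36 genes below equality, 7 at least 1.2-fold lower and 14 lower beyond counting error. In none of 180 recomputed log2 ratios (36 genes under 2 pseudocounts and 3 scalings) did the value leave the width of its counting interval. The scalings moved log2 ratios by at most 0.016, and the narrowest interval, that of Cep164, ran from -0.168 to 0.037. Only the 2 pseudocounts could therefore have given another outcome. At least 1.2-fold lower were 8 genes with 0.5 FPKM added, 5 with 2 FPKM, 11 with 0.1 FPKM and 11 as plain ratios; at least 1.2-fold higher was 1 gene, or 0 with 2 FPKM. With a filter of 5 FPKM 22 genes remained, 1 of them higher beyond counting error. The median log2 ratio was then -0.22 in the BBSome core and -0.21 in the MKS and tectonic module. Of the NPHP, inversin and Cep290 genes only Iqcb1 remained, at -0.063. Of the centriole genes only Cep164 and Ofd1 remained, with a median of -0.15. Without the 15 genes whose exons overlap another gene, 21 remained, of which 18 were below equality, 9 lower and 0 higher beyond counting error and 0 at least 1.2-fold higher, and the median of the MKS and tectonic module was -0.21. Both genes higher beyond counting error in the full set were among the 15 left out. They are Tmem216 and Cep290, and Cep290 shares 7.58% of its exon bases with 4930430F08Rik on the opposite strand. The part of the overlaps themselves in these last shifts was not tested. The X-box share of 34.3% was 14.3% with 9 fixed letters and 14.3% with the bases before the start only. The counting intervals were widest for the short or weakly expressed Tmem17 and Bbs5, and differences under about their width could not be seen at this depth.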

Other observations

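For 9 of the 36 genes a protein-coding gene starts on the opposite strand close to the same start, from 500 bases of overlap to 1000 bases apart, and 5 of these 9 pairs had both ratios on the same side of equality. Under each of the 3 other scalings this held for 3 of the 9, since Tctn3 and Erp44 lie so near equality that they turn above it. The agreeing pairs include Bbs12 and Cetn4 under every scaling. Cetn4 lay below the filter of 1 FPKM, at 0.64 FPKM in the Dyrk2-KO library and 0.78 FPKM in the WT library. The share of agreeing pairs over all genes was not computed, so these counts have no background to be read against. Of all genes above the filter, 53.7% lay below 0. Fto, the RNA demethylase gene that starts 263 bases from Rpgrip1l, measured 12.9 FPKM in the Dyrk2-KO library and 12.7 FPKM in the WT library, and Rpgrip1l was level too. Erp44, a chaperone gene of the early secretory pathway, starts 202 bases from Invs and was level at 18.3 FPKM in the Dyrk2-KO library and 18.4 FPKM in the WT library, while Invs had a ratio of 0.812. Tmtc3, which starts 208 bases from Cep290, had a ratio of 0.965 (0.895 to 1.04) where Cep290 had 1.12. Entpd1 beside Tctn3, with a ratio of 0.818 (0.714 to 0.940), and Cyb561a3 beside Tmem138, with 0.809 (0.701 to 0.934), were lower beyond counting error. Tctn3 and Tmem138 themselves were level. The intervals of all other partners included 1, and 22.3% of all genes above the filter were lower by this rule. These pairs were examined after the values were seen, and the difference between partners was not tested.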
